A study of Mus musculus with 7 samples.

Results

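The genes described here are 10 genes of host defence and protease inhibition in skin: Wfdc21, Wfdc12, Slpi, Stfa1, Stfa3, Defb1, Defb4, Defb6, Lcn2 and Camp. They were chosen by their known roles and on their measured log2 difference between blastema and uninjured digit on these same arrays, and for each gene the brightest probe set that carries its symbol alone was read. All 10 were measured, out of 22180 genes on the array. Because the comparison of blastema with uninjured digit helped to choose them, their differences in that comparison are given as a description and not as a test. RNA came from C57Bl/6 mice, with no transgene or drug named in the labels, and each sample was read on its own 1-colour array. The 4 uninjured digits were intact. The 3 blastemas, the masses of cells that build up at the stump and regrow the lost tip, were harvested 2 weeks after amputation. The labels give no age, sex or batch, and do not say how many digits or mice went into a sample. They call the samples of a group independent biological replicates.

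Skin defends itself partly with small secreted proteins. WAP-domain proteins such as Slpi, the secretory leukocyte peptidase inhibitor, block serine proteases of neutrophils and can also kill bacteria. Stefins are inhibitors of cysteine cathepsins and act mostly inside cells. Beta-defensins and the cathelicidin encoded by Camp are cationic peptides that damage microbial membranes, and Lcn2, lipocalin 2, withholds iron from bacteria by binding their siderophores. Keratinocytes make some of these proteins all the time and raise others after wounding or infection, while neutrophils carry Camp and Lcn2 in their granules.

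The 2 stefin genes lie in 1 cluster on mouse chromosome 16, and their promoters are shown because both genes were lower in blastema and their upstream sequences are alike. Sequences are from RefSeq, build GRCm38.p6, and run from 250 bases before to 50 bases after the gene start. Stfa1 (plus strand) is chr16:36276898-36277197 and Stfa3 (minus strand) is chr16:36455343-36455642. Capitals mark AGATAA, the core of a GATA factor motif, searched on both strands.
Stfa1: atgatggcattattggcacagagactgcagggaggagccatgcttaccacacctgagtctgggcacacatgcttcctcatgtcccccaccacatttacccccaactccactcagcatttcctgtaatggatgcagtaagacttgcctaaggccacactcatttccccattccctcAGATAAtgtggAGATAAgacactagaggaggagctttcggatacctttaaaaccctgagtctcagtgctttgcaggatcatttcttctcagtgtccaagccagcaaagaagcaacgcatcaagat
Stfa3: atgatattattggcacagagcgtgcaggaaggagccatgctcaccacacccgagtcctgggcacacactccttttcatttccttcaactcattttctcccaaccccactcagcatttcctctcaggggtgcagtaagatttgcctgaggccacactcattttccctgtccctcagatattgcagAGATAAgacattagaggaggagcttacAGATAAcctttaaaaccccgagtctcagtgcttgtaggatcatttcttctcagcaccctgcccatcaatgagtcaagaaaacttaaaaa
In a global alignment 245 of the 300 bases (81.7%) were identical. Each promoter held 2 matches of AGATAA, and Defb6 held 1. They began 75 and 64 bases before the start in Stfa1, and 66 and 39 before it in Stfa3. Only the match at 64 in Stfa1 and that at 66 in Stfa3 lay in nearly the same surrounding sequence. Promoters so alike do not count as 2 independent cases. Of the 32851 RefSeq promoters of this length, 11.2% held at least 1 match and 1.14% held more than 1.

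Lcn2 and Slpi are shown next, because both were highest on blastema array 3. Lcn2 (minus strand) is chr2:32387690-32387989 and Slpi (minus strand) is chr2:164356458-164356757. Capitals mark TTGCNNAA, a C/EBP-type motif, searched on both strands.
Lcn2: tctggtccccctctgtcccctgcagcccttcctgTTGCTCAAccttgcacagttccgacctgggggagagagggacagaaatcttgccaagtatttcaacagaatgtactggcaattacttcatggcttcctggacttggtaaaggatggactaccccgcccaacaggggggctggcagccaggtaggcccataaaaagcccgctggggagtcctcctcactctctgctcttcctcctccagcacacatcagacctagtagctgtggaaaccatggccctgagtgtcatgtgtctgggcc
Slpi: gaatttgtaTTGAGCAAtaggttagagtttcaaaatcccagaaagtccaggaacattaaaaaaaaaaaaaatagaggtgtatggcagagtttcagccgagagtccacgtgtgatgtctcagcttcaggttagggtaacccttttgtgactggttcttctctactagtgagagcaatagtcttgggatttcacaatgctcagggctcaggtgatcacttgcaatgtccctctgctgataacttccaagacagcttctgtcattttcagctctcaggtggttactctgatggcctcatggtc
Each held 1 match, in Slpi on the reverse strand, as did Stfa1 and Wfdc12, while Defb6 held 2, so 5 of the 7 members with a promoter in the table had at least 1 match, against 10.8% of all promoters. Of 3 other motifs searched, TGANTCA (AP-1) matched in Stfa3 only and in 7.81% of all promoters, and an NF-kB consensus and TATAAA matched in none of the 7 and in 1.47% and 13.6% of all. The motifs were chosen after the sequences and the values were seen, so nothing is read from these counts beside the shares of all promoters. The 5 genes with a TTGCNNAA match include genes that were lower in blastema and genes that did not pass. A match describes letters, not a bound site.

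The array values are log2 levels. Over all genes, array pairs correlated at 0.986 to 0.991 within uninjured digit, 0.988 to 0.992 within blastema and 0.964 to 0.979 between the groups. By limma with Benjamini-Hochberg adjustment over all 22180 genes, 2139 passed an adjusted p of 0.05, which is the threshold used throughout. They are 9.64% of all genes, with 1105 higher (4.98%) and 1034 lower (4.66%) in blastema, and the median difference of all genes was -0.0054. The counts per direction follow the scaling. Set to 9 reference genes, whose mean was 0.36 higher in blastema, the median moved to -0.37 with 550 genes higher and 11201 lower. Set to 16 epidermal genes, the median moved to 0.13 with 2359 higher and 590 lower. The table has no detection calls, so low signal was taken as a level up to 5.51, which 95% of 1088 olfactory receptor genes, silent in most tissues, did not exceed on average.

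Of the 10 genes, 5 were lower past the threshold in blastema (Wfdc21, Stfa3, Stfa1, Wfdc12 and Defb1), 1 was higher (Defb4), and 4 did not pass (Lcn2, Slpi, Defb6 and Camp). The background share is 9.64%, and nothing is read from the count because this comparison entered the choice of genes. The groups did not overlap in 7 members, 2 higher and 5 lower, against 21.0% of all genes, 10.4% higher and 10.6% lower, and Lcn2 was the member without overlap that did not pass. The median difference of the 10 was -0.28. Setting the arrays to the reference genes, the epidermal genes or the array median adds the same amount to the difference of every gene. These amounts were smaller than the difference of each of the 6 that passed, so their directions could not turn.

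**Figure D1:**
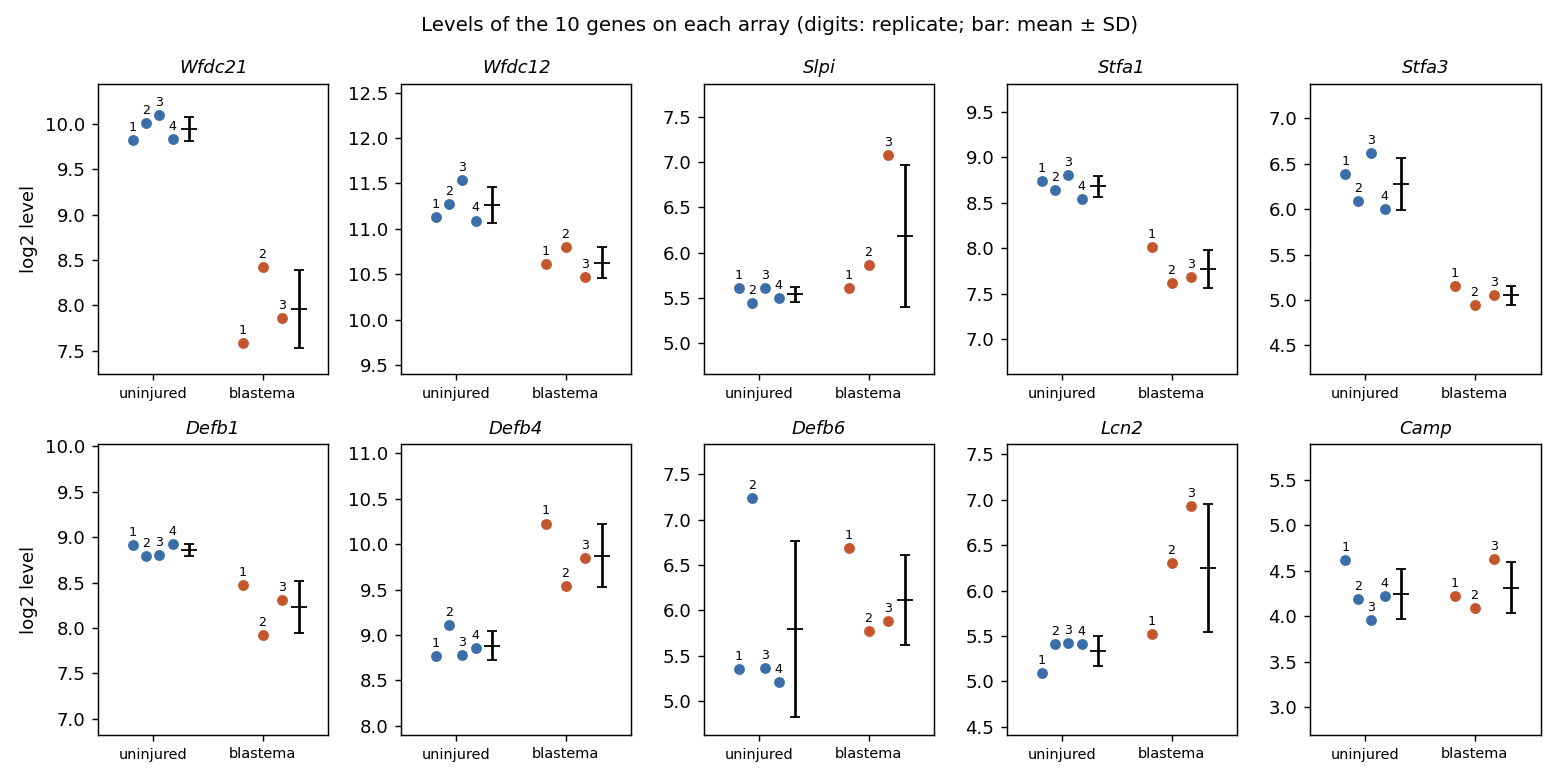
Log2 level of each of the 10 genes (y axis, each panel spanning 3.2 log2 units) on the 4 uninjured and 3 blastema arrays, with replicate numbers beside the points and the mean ± SD of each group. Wfdc21, Wfdc12, Stfa1, Stfa3 and Defb1 lie lower on every blastema array than on any uninjured array, Defb4 lies higher, and Defb6 has 1 uninjured array at 7.24.

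Among the WAP-domain genes, Wfdc21 and Wfdc12 were lower in blastema and Slpi was higher on 2 of the 3 blastema arrays. Wfdc21, which encodes a small secreted WAP-domain protein, read 9.83, 10.01, 10.10 and 9.83 in uninjured digit and 7.59, 8.43 and 7.86 in blastema. The groups were 1.40 apart at their closest, although the blastema arrays spread over 0.84. The means of 9.94 ± 0.13 (SD, n = 4) and 7.96 ± 0.43 (SD, n = 3) differ by -1.98 ± 0.19 (SE), so that the uninjured level was 3.95 times the blastema level, the widest difference among the 10 genes. Wfdc12, a WAP-domain protein with antibacterial activity, read 11.13, 11.28, 11.53 and 11.09 in uninjured digit and 10.61, 10.80 and 10.47 in blastema. Its difference was -0.63 ± 0.13 (SE), with a gap of 0.29 between the groups. A second, dim probe set of Wfdc12 differed by -0.54, with means of 4.56 and 4.02. Slpi read 5.61, 5.45, 5.61 and 5.50 in uninjured digit, near the low-signal mark, and 5.61, 5.86 and 7.08 in blastema. Blastema array 1 carried the same value as uninjured arrays 1 and 3 to the last deposited digit, and array 3 stood 1.53 above the uninjured mean. The difference was 0.64 ± 0.32 (SE, 95% interval -0.11 to 1.39), and without blastema array 3 it was 0.19. Wfdc12 did not pass without uninjured array 2 or without any single blastema array (differences of -0.63, -0.63, -0.72 and -0.55), and Wfdc21 passed in all 7 omissions of 1 array.

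The other 19 measured genes of the WFDC family stayed mostly at low signal, 12 of them under the mark in both groups. Of the 19, 1 fell (Wfdc17) and 0 rose by limma, where the background is 4.66% lower and 4.98% higher. Their median difference was -0.01. Wfdc17 and Wfdc18 are neighbours of Wfdc21 on chromosome 11, in the RefSeq order Wfdc17, Wfdc18, Wfdc21. The uninjured mean of Wfdc17 was 8.37 ± 0.28 (SD, n = 4) and its blastema mean 7.09 ± 0.31 (SD, n = 3), so it fell by 1.27 ± 0.19 (SE, limma adjusted p = 0.0086). Wfdc18, between them, differed by 0.52 ± 0.19 (SE, limma adjusted p = 0.153) and was named after its values were seen. Without uninjured array 1 Wfdc18 passed as higher (adjusted p = 0.0256), and without blastema array 3 the family also had 1 higher gene. On chromosome 2, Wfdc5 is the neighbour of Wfdc12 and differed by -0.44 ± 0.12 (SE, limma adjusted p = 0.0734), with no overlap between the groups. Wfdc2, a further family member of epithelia, lay at 5.46 in uninjured digit and 5.26 in blastema (difference -0.20, limma adjusted p = 0.386). Of the 11 genes from Wfdc5 to Slpi, Wfdc12 alone passed, and the 8 genes between Wfdc12 and Slpi, named for the WAP and seminal vesicle families, differed by -0.16 to 0.28.

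Both stefins were lower in blastema. Stfa1 read 8.74, 8.64, 8.81 and 8.55 in uninjured digit and 8.01, 7.62 and 7.69 in blastema. Every blastema array lay at least 0.53 below every uninjured array. The difference was -0.91 ± 0.11 (SE), an uninjured level 1.88 times that of blastema. Stfa3 read 6.39, 6.09, 6.62 and 6.00 in uninjured digit and 5.15, 4.95 and 5.06 in blastema. Its blastema arrays lay within 0.20 of each other and under the low-signal mark, so that the difference of -1.22 ± 0.15 (SE), or 2.33-fold, is measured against a level near background. Stfa1 and Stfa3 passed in all 7 omissions of 1 array.

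Other cystatin-type inhibitors fell too, and the stefin cluster did not move as one. Of the 12 other stefin and cystatin genes measured, 5 fell and 0 rose by limma (background 4.66% lower), with a median of -0.27 against -0.0054 for all genes. Cst3, the widely made secreted cystatin C, fell by 0.81 ± 0.08 (SE) on the log2 scale from 10.16 (limma adjusted p = 0.0028), and Cstb, the general intracellular stefin B, fell by 0.68 ± 0.08 (SE) from 8.90 (adjusted p = 0.0039). Cst6, the cystatin M/E of cornifying epidermis, fell by 0.69 ± 0.12 (SE, limma adjusted p = 0.0132). Within the chromosome 16 cluster, Cstdc5 fell by 1.16 ± 0.17 (SE, adjusted p = 0.008), at levels under the low-signal mark, and Csta1 fell by 0.83 ± 0.20 (SE, adjusted p = 0.0406). The other measured cluster genes went both ways without passing. Stfa2l1 was higher by 0.62 ± 0.22 (SE, adjusted p = 0.135) with no overlap, Csta3, named after its values were seen, by 1.03 ± 0.40 (SE, adjusted p = 0.162), and Stfa2 differed by -0.20 (adjusted p = 0.567), all at low signal. Without blastema array 2 or 3 the list's count dropped to 3. Cst6 then did not pass (adjusted p = 0.0633 and 0.0662), and Csta1 did not in 6 of the 7 omissions (0.0571 to 0.155).

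Cluster genes that fell and cluster genes that did not pass both included promoters like that of Stfa1. The Cstdc5 promoter, of a gene that fell, had 89.7% of its bases identical to that of Stfa1, and the Stfa2l1 and Stfa2 promoters, of genes that did not pass, 80.3% and 80.0%. Csta3 held 2 matches of AGATAA as Stfa1 and Stfa3 did, while Csta1 held 0. Csta1, which fell, had 58.7% of its promoter bases identical to that of Stfa1. Stefin genes are close copies of each other, so the split of signal among their probe sets is uncertain.

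**Figure D2:**
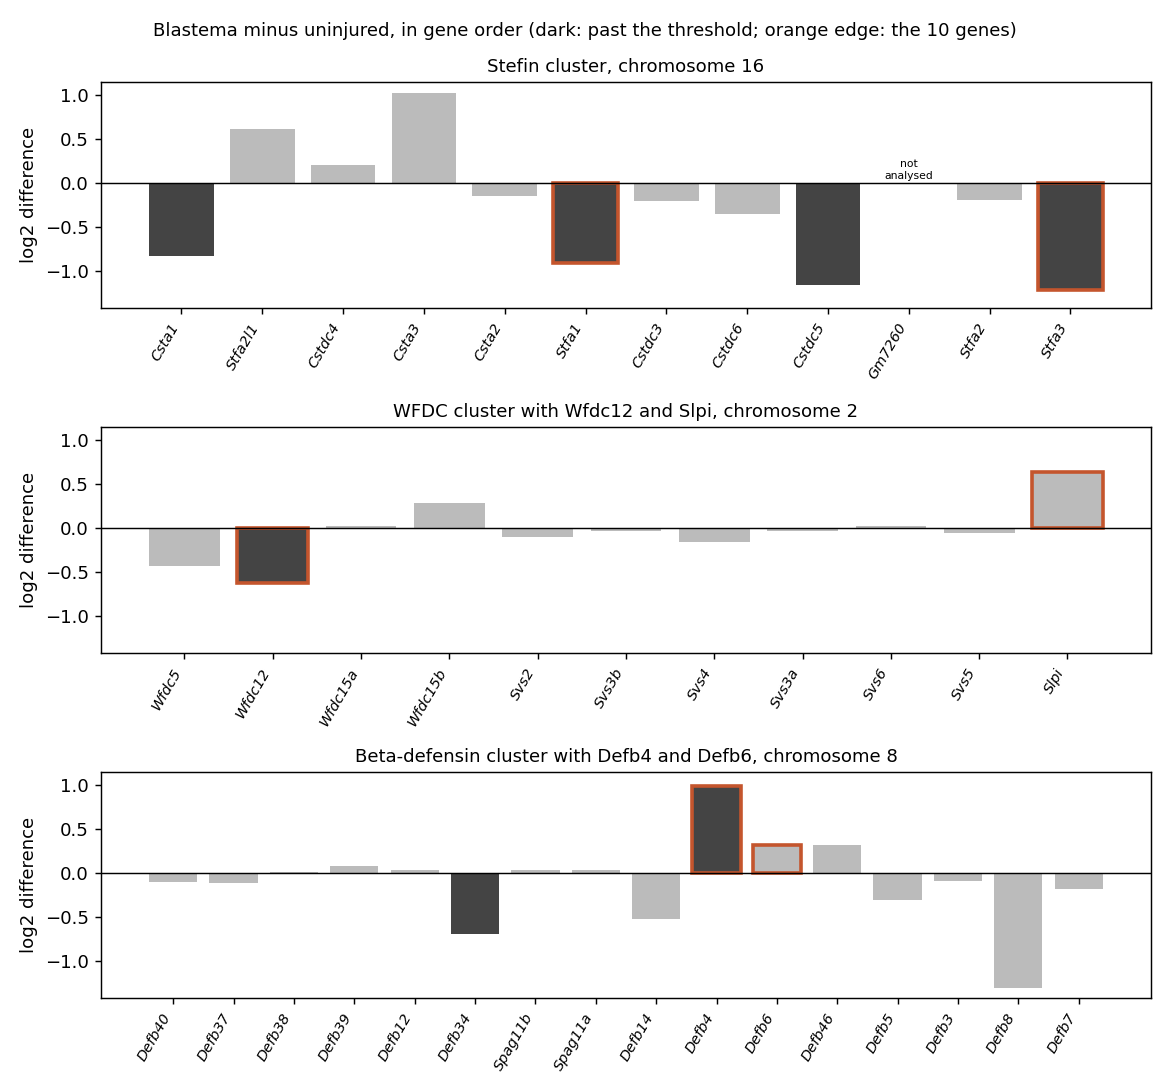
Log2 difference, blastema minus uninjured (y axis), of the genes of 3 clusters in their RefSeq order (x axis). Dark bars passed the threshold and orange edges mark members of the 10, and the stefin cluster has 4 genes that were lower beside others at up to 1.03 higher.

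Of the 3 beta-defensins, Defb1 was lower in blastema, Defb4 was higher and Defb6 overlapped. Defb1, the defensin that epithelia make constitutively, read 8.91, 8.80, 8.80 and 8.92 in uninjured digit and 8.47, 7.92 and 8.31 in blastema. The uninjured arrays spread over 0.13 and the blastema arrays over 0.55, with no overlap, and the difference was -0.62 ± 0.13 (SE). Defb4, an inducible defensin of epithelia, read 8.77, 9.11, 8.78 and 8.85 in uninjured digit and 10.23, 9.54 and 9.85 in blastema. It was the member that was higher past the threshold, by 0.99 ± 0.17 (SE) or 1.99-fold, with blastema array 1 the highest. Defb6 read 5.35, 7.24, 5.37 and 5.22 in uninjured digit and 6.69, 5.78 and 5.88 in blastema. Uninjured array 2 was above every other array, so the groups overlap and the difference of 0.32 has a 95% interval of -0.89 to 1.53. Without that array every blastema array lay higher and the difference was 0.80, and without blastema array 1 it was 0.04, neither past the threshold. Defb1 did not pass without any 1 of the uninjured arrays or without blastema array 3 (differences of -0.60 to -0.66), and Defb4 did not without blastema array 3 (1.01).

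Of the 31 other beta-defensins measured, 25 lay under the low-signal mark in both groups, 1 rose and 1 fell by limma (background 4.98% and 4.66%), and the median was -0.09. Defb34 fell by 0.69 ± 0.14 (SE, limma adjusted p = 0.0266) from 4.17, and Defb25 rose by 0.35 ± 0.08 (SE, limma adjusted p = 0.033) from 5.32, which turned to -0.01 under reference gene scaling. Defb14, the inducible defensin beside Defb4 on chromosome 8, differed by -0.52 ± 0.19 (SE, limma adjusted p = 0.142) from 7.14, in the opposite direction to Defb4. Defb3 differed by -0.09 (limma adjusted p = 0.862). Defb8, in the same chromosome 8 cluster and named after its values were seen, stood at 8.26 on uninjured array 2 and at 3.85 to 4.42 on the other uninjured arrays, so Defb6 and Defb8 were both highest on that array. Defb25 passed in 0 of the 7 omissions of 1 array (adjusted p = 0.0558 to 0.0906), and Defb34 did not pass in 6 (0.057 to 0.0862).

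**Figure D3:**
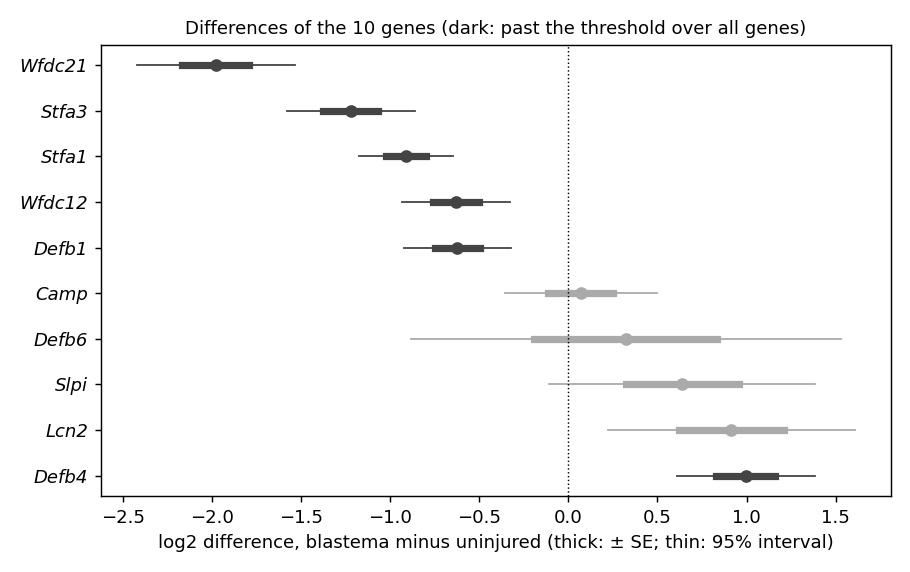
Log2 difference, blastema minus uninjured (x axis), of the 10 genes, with ± SE (thick) and the 95% interval (thin) from the limma fit over all genes. Dark points passed the threshold, from Wfdc21 at -1.98 to Defb4 at 0.99, and Lcn2 at 0.92 did not.

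Lcn2 was higher in blastema on average, and most of that came from 2 arrays. It read 5.10, 5.41, 5.42 and 5.41 in uninjured digit, all under the low-signal mark, and 5.52, 6.30 and 6.93 in blastema. Blastema array 1 stood 0.10 above the highest uninjured array, and arrays 2 and 3 stood 0.97 and 1.59 above the uninjured mean. The difference was 0.92 ± 0.30 (SE, 95% interval 0.22 to 1.61) and did not pass. Without blastema array 1 it was 1.28 and passed, and without blastema array 3 it was 0.58 and did not. Camp, the cathelicidin gene, read 4.62, 4.19, 3.96 and 4.22 in uninjured digit and 4.22, 4.09 and 4.63 in blastema. These values overlap, all lie under the low-signal mark, and the difference of 0.07 has a 95% interval of -0.36 to 0.50. The arrays do not show whether Camp changed within that interval.

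S100a8 and S100a9 were, like Lcn2, higher on blastema arrays 2 and 3 than on array 1. S100a8, a subunit of the calprotectin that binds metal ions in neutrophils and stressed keratinocytes, read 6.39, 8.66 and 9.02 on the blastema arrays and 5.97 to 6.39 on the uninjured arrays. Its partner S100a9 stood at -0.29, 1.44 and 1.79 relative to the uninjured mean, around which the uninjured arrays lay from -0.54 to 0.38. Both were as low on blastema array 1 as in uninjured digit and higher on the other two. Over the 3 arrays S100a8 differed by 1.83 ± 0.58 (SE, limma adjusted p = 0.101) and S100a9 by 0.98 ± 0.49 (SE, adjusted p = 0.267). Without blastema array 1 both passed, at 2.65 (limma adjusted p = 0.002) and 1.62 (0.0199), and without blastema array 3 they were at 1.33 (0.298) and 0.58 (0.586). Il1b, the cytokine interleukin 1 beta, differed by 0.87 ± 0.30 (SE, limma adjusted p = 0.122), and was highest on array 3. Clec4d and Itgam, receptor and integrin genes of myeloid cells named after their values were seen, differed by 0.76 and 0.72 (limma adjusted p = 0.134 and 0.0955). Clec4d lay under the mark in both groups (means 4.25 and 5.01), and Itgam passed without blastema array 1 (limma adjusted p = 0.0122). Other interleukin 1 family cytokines, also named after their values were seen, went the other way. Il1a fell by 0.60 ± 0.14 (SE, limma adjusted p = 0.0387) and Il1f8 by 0.66 ± 0.16 (SE, adjusted p = 0.0425), and Il1f6 differed by -0.55 ± 0.16 (SE, adjusted p = 0.0794), each with no overlap between the groups. Il1a and Il1f8 passed in 1 of the 7 omissions of 1 array, that of blastema array 1 (adjusted p elsewhere 0.062 to 0.107 and 0.0569 to 0.12), and Il1a did not pass under epidermal gene scaling.

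The neutrophil granule genes Elane, Mpo, Ltf and Ngp lay at low signal, where differences are compressed, and like Camp they did not pass. Elane, the neutrophil elastase that Slpi inhibits, lay at 4.74 in uninjured digit and 4.75 in blastema (difference 0.01, limma adjusted p = 0.951). Mpo, myeloperoxidase, differed by 0.11 (adjusted p = 0.41), Ltf, lactoferrin, by -0.04 (0.805), and Ngp, a granule protein of the cathelicidin family whose gene lies on chromosome 9 as Camp does, by -0.09 (0.541). Ly6g, a surface marker of mouse neutrophils, differed by -0.32 (limma adjusted p = 0.422). All 5 had means under the low-signal mark in both groups. In the list of 16 neutrophil markers, 0 passed by limma (background 4.98% higher), and 11 lay under the mark in both groups. When blastema array 1 was left out, 3 genes of the list passed as higher. Under reference gene scaling 1 passed as higher and 4 as lower, where 11201 of all genes were lower. The list's mean level ran from 4.89 to 5.04 in uninjured digit and was 5.06, 5.33 and 5.47 in the blastema samples (exact permutation p = 0.0286, adjusted 0.0343 over 6 marker lists, 0.0286 being the smallest that 4 against 3 arrays allow). The median difference of the list was 0.05. S100a8, also of stressed keratinocytes, S100a9, Il1b and the myeloid genes Clec4d and Itgam are among its genes. The list was written with earlier results of these data known, so a change in neutrophils cannot be read from its mean. The part of neutrophils in the Lcn2, Slpi and S100a8 levels was not tested.

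**Figure D4:**
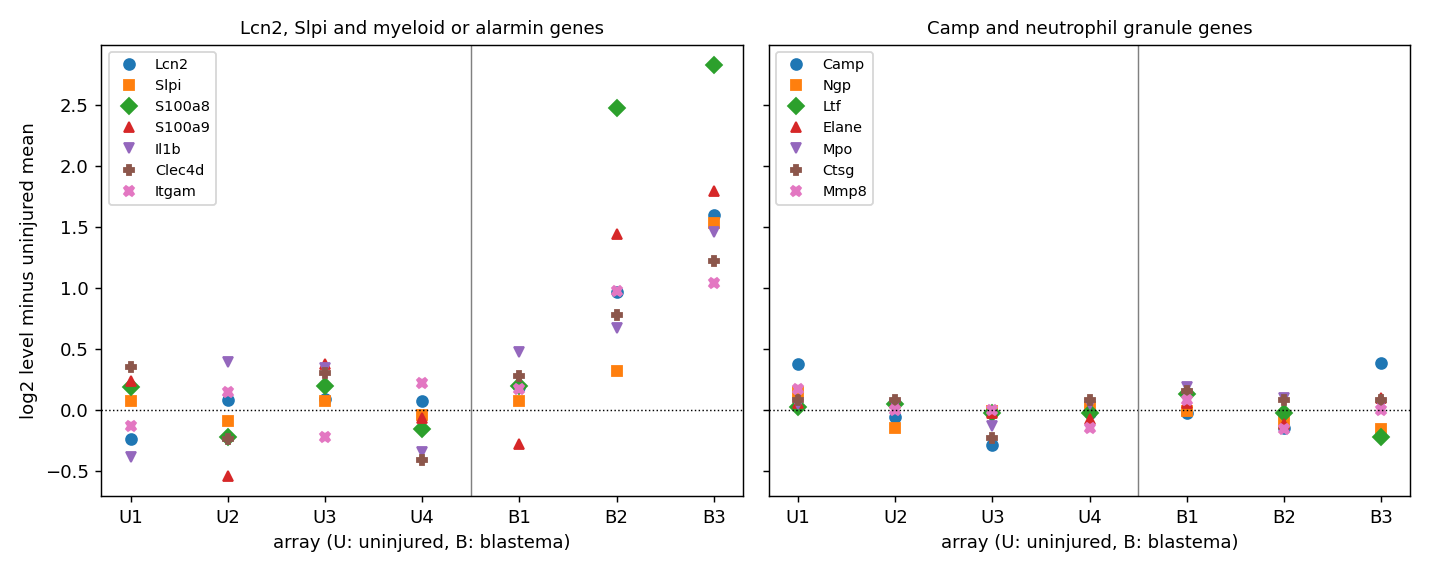
Log2 level minus the uninjured mean (y axis) on each array (U1 to U4 uninjured, B1 to B3 blastema), for Lcn2, Slpi, S100a8, S100a9, Il1b, Clec4d and Itgam (left) and for Camp and 6 neutrophil granule genes (right). On the left the values of B2 and B3 exceed that of B1 in every gene, up to 2.82 for S100a8. Il1b and Clec4d on the left, and the genes on the right, have means under the low-signal mark in both groups. On the right all values lie between -0.29 and 0.38.

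Of the 27 other skin antimicrobial genes measured, S100a8 and S100a9 included, 2 rose and 0 fell by limma (background 4.98% higher), with a median of 0.06. Cxcl14, an antimicrobial chemokine made by epithelia, rose by 0.73 ± 0.09 (SE, limma adjusted p = 0.0045), a call lost under reference gene scaling, where the difference was 0.37. Lyz2, the lysozyme of macrophages, rose by 1.12 ± 0.24 (SE, limma adjusted p = 0.0287). Single omissions of uninjured arrays 3 and 4 and blastema arrays 2 and 3 left a count of 1 each, and there Lyz2 did not pass (adjusted p = 0.0593 to 0.119). Without blastema array 1 the count was 4.

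Genes of a list of proteases, drawn up as possible targets of such inhibitors, moved both ways. Whether the members inhibit each of them was not tested. Of its 16 genes 6 rose and 2 fell by limma (background 4.98% and 4.66%), with a median of 0.05. Ctsk, the cathepsin of osteoclasts, had an uninjured mean of 6.57 ± 0.34 (SD, n = 4) and a blastema mean of 9.88 ± 0.43 (SD, n = 3), so it rose by 3.32 ± 0.24 (SE, limma adjusted p = 0.0013). Ctss and Ctsc, both lysosomal cathepsins of immune cells, rose by 1.56 ± 0.28 and 1.55 ± 0.30 (SE, limma adjusted p = 0.0154 and 0.0202), and Ctsb, a general cathepsin, by 0.64 ± 0.13 (SE, adjusted p = 0.0261). The 6 that rose were all cysteine cathepsins, the class that stefins and cystatins inhibit. Ctsl was the cysteine cathepsin of the list that did not pass (9.49 and 9.47, difference -0.02, limma adjusted p = 0.926). Uninjured array 3 and all 3 blastema arrays carried the same Ctsl value to the last deposited digit. An unchanged level of Ctsl therefore cannot be read from this probe set. Under reference gene scaling Ctsb did not pass and the list had 4 higher and 6 lower genes. Klk5, a kallikrein of shedding epidermis, fell by 1.17 ± 0.12 (SE, limma adjusted p = 0.0027) from 10.37. Single omissions left 2 to 6 higher genes, with the count over 1.5 times lower in the omissions of uninjured arrays 3 and 4 and of blastema arrays 2 and 3, and Ctss, Ctsc and Ctsb did not pass in 3, 4 and 5 of the 7 (adjusted p = 0.0502 to 0.103).

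Among 34 inducing signals and regulators 4 rose and 6 fell by limma (background 4.98% and 4.66%), with a median of 0.00399. Rela, the NF-kB subunit p65, rose by 1.28 ± 0.10 (SE, limma adjusted p = 0.0014). Cebpa, a C/EBP factor of differentiating keratinocytes, fell by 0.92 ± 0.17 (SE, adjusted p = 0.0189), and Il22ra1, the interleukin 22 receptor chain of epithelia, by 0.77 ± 0.13 (SE, adjusted p = 0.0121). Il22 itself passed as lower by 0.76 (adjusted p = 0.0055) but at levels of 2.03 and 1.27, far under the low-signal mark. Cebpb differed by -0.26 (limma adjusted p = 0.202) and Il17ra, the interleukin 17 receptor, by 0.06 (adjusted p = 0.711). Of 9 genes for receptors of these peptides, 0 passed by limma. Fpr2, the receptor of the Camp peptide, had the smallest p (difference 0.38, limma adjusted p = 0.137, at low signal). Over single omissions the higher regulators numbered 2 to 4 and the lower 1 to 6, the lower count being over 1.5 times smaller in all omissions except those of uninjured array 1 and blastema array 1, and the higher count in those of uninjured array 2 and blastema arrays 2 and 3. Cebpa did not pass in 4 omissions (adjusted p = 0.0565 to 0.0877) and Il22ra1 in 2 (0.0516 and 0.0624).

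Markers of cell types moved with these differences. In bulk tissue, fewer cells of a type and less RNA per cell cannot be told apart. Of 16 measured genes of all epidermal layers none was under the low-signal mark in both groups, 3 fell and 0 rose by limma (background 4.66% and 4.98%), with a median of -0.09, and their mean level was 10.65 to 10.72 in uninjured digit and 10.47 to 10.57 in blastema (exact permutation p = 0.0286, adjusted 0.0343). Krt14 (-0.08, limma adjusted p = 0.68), the basal keratin, and Krt1 (-0.17, 0.267) and Krt10 (-0.18, 0.155), the suprabasal keratins, did not pass. The genes that fell were Evpl (-0.80, adjusted p = 0.0071), Ppl (-0.47, 0.0132) and Perp (-0.26, 0.0369), cell envelope and desmosome genes named after their values were seen. Relative to the epidermal mean of each array, Wfdc21 differed by -1.84, Stfa3 by -1.08 and Stfa1 by -0.77. Wfdc12 and Defb1 differed by -0.49 each and Defb4 by 1.13. This scaling adds the same amount to the difference of every gene, too little to turn any of these directions. Perp did not pass in any of the 7 omissions (adjusted p = 0.0509 to 0.112), nor Ppl without blastema array 2 or 3 (0.0561 each). Over the omissions the list had 1 to 3 lower genes, the smallest counts without blastema array 2 or 3.

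Some wound keratinocyte and macrophage genes rose in blastema. Of 11 wound keratinocyte genes 4 rose and 0 fell by limma, where the background is 4.98% higher and 4.66% lower for this and the next 3 lists. Krt6a, a keratin of wounded and of nail and palmoplantar epidermis, rose by 0.55 ± 0.06 (SE, adjusted p = 0.0031), and Krt6b (0.44, 0.0255), Plaur (1.05, 0.0106), the urokinase receptor, and Itga5 (1.17, 0.0048), an integrin chain, rose too, these 3 named after their values were seen. Krt16 differed by 0.25 (limma adjusted p = 0.148). The mean level of the list was 9.10 to 9.28 in uninjured digit and 9.58 to 9.76 in blastema, and that of 10 macrophage genes, of which 5 rose, 6.20 to 6.43 and 6.66 to 7.02 (exact permutation p = 0.0286 each, adjusted 0.0343). Among the macrophage genes that did not pass, Cd163, named after its values were seen, differed by -0.28 (limma adjusted p = 0.138) at low signal, and without blastema array 1 it passed as lower (-0.39, adjusted p = 0.0337). Of 11 fibroblast and bone genes 9 rose, with means of 7.35 to 8.30 and 9.85 to 10.35 (exact permutation p = 0.0286, adjusted 0.0343). Of 12 sweat gland genes 2 fell, with means of 5.92 to 6.40 and 5.84 to 5.87 (exact permutation p = 0.0857, adjusted 0.0857). The part of these cell types in the differences of the 10 genes was not tested. Which cells the genes of a list, such as Plaur and Itga5, rose in was not tested either. Under reference gene scaling Krt6a and Krt6b did not pass, and Krt6b did not in 5 of the 7 omissions (adjusted p = 0.0565 to 0.088). Over the omissions the macrophage count was 1 to 5, smaller by over 1.5 times when uninjured array 3 or 4 was left out, or blastema array 2 or 3. The sweat gland count was 1 in each of the 7 omissions.

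**Figure D5:**
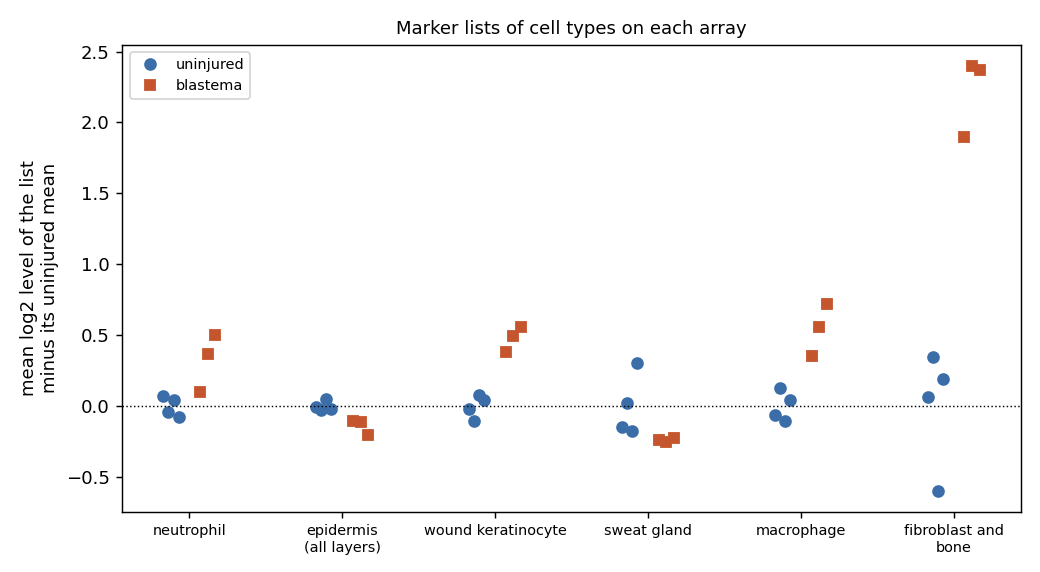
Mean log2 level of 6 cell type marker lists on each array, minus the uninjured mean of the list (y axis), for uninjured (circles) and blastema (squares). In blastema the mean of the fibroblast and bone list is 2.22 higher, those of the wound keratinocyte and macrophage lists 0.48 and 0.54 higher, and that of the epidermis list 0.14 lower.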

How the data were processed

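Total RNA (400 ng per sample) was hybridised to 1-colour arrays. The deposited values are log2 levels, made by the authors with RMA in the R package oligo, per the submitters' processing notes. RMA subtracts background, equalises the arrays and merges the probes of a set, so a level has no unit of its own and low levels are compressed. No source used here gives versions, array design or build. Precision is limited by the number of arrays, 7. The platform annotation gave 1 symbol to 23521 of 41345 probe sets, and the brightest per gene over the 7 arrays was used (22180 genes). Symbols missing from the annotation were sought through RefSeq gene IDs and synonyms. List genes absent from it were not analysed here. Blastema and uninjured digit were compared with limma 3.58.1 under R 4.3.3 (lmFit, eBayes), with all 7 arrays, no covariate and no filter, with Benjamini-Hochberg adjustment over all genes. Differences are blastema minus uninjured means on the log2 scale. Marker list means were compared by an exact two-sided permutation test over the 35 splits of the arrays. The members and lists were chosen with earlier results of these data known. The text names all 10 members, up to 4 passing genes of each list by size (or the smallest p), genes listed by name, and a few, marked as such, that were picked once their values had been seen. Krt5, also listed by name, was not analysed here. On simulated data over the same 22180 genes, 50 genes were changed at each size, with independent noise. There limma recovered 46% of genes changed by 0.5, 80% at 1 and 100% at 2 and 3, and 8 of 171 calls were unchanged genes. Far fewer genes were changed than passed in the real comparison, so these rates do not carry over to it. Alternatives were the replicate number as a block, level filters, probe set means, trend and robust variances, array weights, 3 scalings and the omission of arrays. Plots used matplotlib 3.10.9.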

Additional observations from a re-analysis of the deposited data

Results flagged for a closer look

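In 4 of the 52 genes named by the rule, 1 of the 4 uninjured arrays stood apart from the other 3, by a gap over range above 0.829, which chance gives in about 1 of 20 genes. Defb8 and Ppl, named after their values were seen, are given beside them and not counted. Defb6 stood at 7.24 and Defb8 at 8.26 on uninjured array 2. Lcn2 was low at 5.10 and Wfdc2 high at 5.66 on uninjured array 1. Mpo was low at 4.71, and Ppl high at 10.69, on uninjured array 3.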

How the results depend on the processing

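Wfdc21, Stfa1 and Stfa3 passed, and Slpi, Defb6 and Camp did not, under all alternatives run. Over the omissions of 1 array, 457 to 1286 genes were higher and 365 to 1009 lower, 0 to 2 and 3 to 4 among the 10 genes and 5 to 13 and 7 to 15 among the genes of the other lists. The replicate numbers were not taken as pairs in the main fit. Deviations of same-numbered arrays correlated at 0.29, 0.15 and -0.07, and those of differently numbered arrays at -0.22 to 0.14. Whether same-numbered arrays share a factor was not tested. With the number as a replicate block, 295 genes were higher and 304 lower, 0 and 3 of the 10 genes, and 6 and 8 of the other lists. Wfdc12, Defb1 and Defb4 lost their calls with that block. Reference gene scaling gave 550 higher and 11201 lower genes and 7 and 66 in the lists. Epidermal gene scaling gave 2359 and 590, and 20 higher in the lists. Array weights and the omission of both arrays numbered 1 gave 2 higher members each, Lcn2 being the one added. The lowest weights were those of uninjured array 1 (0.52) and blastema array 1 (0.62), and the other arrays had 1.04 to 1.66. Genes near 0 changed sign without passing, except Elane under reference gene scaling. Under that scaling Defb6 was at -0.040, Camp at -0.29, Defb25 at -0.013, Krt16 at -0.11, Mpo at -0.26, Elane at -0.35 (limma adjusted p = 0.0481) and Il17ra at -0.30. Under epidermal scaling Krt14 was at 0.055, Defb3 at 0.045, Ltf at 0.096, Ngp at 0.047 and Ctsl at 0.12. Without both arrays numbered 1, Defb6 was at -0.11, Defb3 at 0.12 and Ctsl at 0.052. Elane was at -0.014 with the replicate block and -0.0068 with array weights, and at -0.025 under median scaling, and Ctsl at 0.018 with array weights. Over single omissions Camp ran from -0.090 to 0.19, Defb3 from -0.29 to 0.21, Ltf from -0.13 to 0.046, Elane from -0.033 to 0.074 and Ctsl from -0.059 to 0.052. The cause of these changes was not tested. Low signal limits Camp, Defb6, Slpi, Lcn2 and Stfa3.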
